A study of Mus musculus with 12 samples.

Results

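Glutamate receptors, the vesicular transporters that load glutamate, and the scaffold proteins that hold the receptors at the synapse were described here in mouse hypothalamus. The set holds 36 genes and its members were selected by gene symbol. They were 4 AMPA, 7 NMDA and 5 kainate receptor subunits, 1 delta receptor, 7 metabotropic receptors, 3 vesicular transporters, 2 TARPs (transmembrane AMPA receptor regulatory proteins) and 7 scaffolds. The array carried 87 probes for them, of which 75 were tested, and 34 of the 36 genes had at least 1 tested probe, among 18266 genes tested in all. A probe was tested when at least 1 group had it well above background, by the scanner's call, on every one of its 3 arrays, and the tested probes of a gene were averaged.

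The study compared 4 groups of male mice with 3 arrays each, and each array was taken as 1 mouse. WT mice were untrained wild-type littermates, and KO mice were untrained homozygous ASMT knockouts. The other two groups were the same genotypes after swimming exercise, called exercised WT and KE mice. The knockout came from Cas9-edited C57BL/6 zygotes, with founders carrying a 20 bp deletion in Asmt, the gene of the last enzyme of melatonin synthesis, and was backcrossed to wild-type C57BL/6 littermates for 3 generations. The labels give an age of 6 to 7 weeks for every mouse, which by the protocol is the age at which swimming began. C57BL/6 mice are themselves known to make little melatonin, which limits how far the wild-type groups stand for mice with a working Asmt. The comparisons ask how untrained knockout mice differ from wild-type mice, what swimming changes in each genotype, and whether that change differs between genotypes (the interaction).

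Glutamate is the main excitatory transmitter of the brain. AMPA receptors carry the fast current, NMDA receptors admit calcium when glutamate and depolarization coincide, kainate receptors tune release and excitability, and metabotropic receptors act through G proteins. On the postsynaptic side Dlg4 (PSD-95), Shank and Homer proteins tie these receptors together. Homer1 is made in long forms that link receptors to Shank and in a short form, induced by neuronal activity, that lacks the linking part.

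The arrays held 59305 spots each, of which 61.6% to 67.9% were well above background, and no spot was saturated (0 on every array). Asmt had 1 probe, above background on 0 of 12 arrays, so the genotype could not be checked. Untrained mice lay on slide 1, apart from KO replicate 3, which shared slide 2 with the exercised WT and KE mice. Of the variance over genes, 42.7% lay along a component that separated the slides, with scores of -27.9 to -16.7 on slide 1, 11.04 to 19.7 for the exercised mice and 23.1 for KO replicate 3. The slide was therefore also fitted as a block. For KO versus WT this uses only slide 1, and KE versus exercised WT lies within slide 2 and keeps its value. For KE versus KO it uses only slide 2, where KO replicate 3 is the only KO array. For exercised WT versus WT the slide term comes only from KO replicate 3 against the other KO arrays. Blocked values of both swimming comparisons therefore rest on that array, while the blocked interaction does not use it. All 16 hypothalamic markers were tested, and their mean log2 signal was 11.5 to 11.9 over the arrays.

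The findings for Homer1, Gria3 and Grin2b differ by probe. The first 30 bases of each tested probe of these genes, 60 bases long in all, are therefore shown. They stand as in the array annotation, 5′ to 3′, with positions in build mm9. Letters are in lower case throughout and no base is marked. Probes called those of a cDNA clone carry the accession of a cDNA in the annotation, which describes some of them, as for Homer1 and Gria3, by an Ensembl transcript as well. Whether a probe also binds other forms of its gene was not tested. Variant names are those of the annotation, so the values of the Homer1 variant S probe cannot be assigned to a single form, short or long.
Homer1, transcript variant S, chromosome 13, 94116595 to 94116654, plus strand: tgatagccgggcaaacactgtttatggact
Homer1, cDNA clone, chromosome 13, 94129858 to 94129917, plus strand: tcattagaccctaatagaccaagttatatg
Homer1, transcript variant d, chromosome 13, 94173265 to 94173324, plus strand: tcaaacttcacaaggctatattttgaactg
Homer1, transcript variant L, chromosome 13, 94174815 to 94174874, plus strand: caggggtcagtcccatctgtgtataagtta
Gria3, cDNA clone, chromosome X, 38965889 to 38965948, plus strand: tcctggtttctgtaagtcaactttcaaaac
Gria3, transcript variant 4, chromosome X, 39025568 to 39025627, plus strand: ccaccaacactcagaattacgctacataca
Gria3, transcript variant 1, chromosome X, 39031099 to 39031158, plus strand: gcgcatatttgctctcgtctttagaaaaga
Grin2b, first mRNA probe, chromosome 6, 135681653 to 135681712, minus strand: aaggtgtttatctaaggaaggccattgaac
Grin2b, cDNA clone, chromosome 6, 135819781 to 135819840, minus strand: tagatctccgaacaaacagatgccacaagt
Grin2b, second mRNA probe, chromosome 6, 136121705 to 136121764, minus strand: aacccttaattgccggagactccttaaatc

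The glutamate genes differed little between groups. After Benjamini-Hochberg adjustment over all genes, limma called 0 of the 34 members in each of the 5 comparisons, where it also called 0% of all genes. The methods' t-test gave 0 members after adjustment in each of the 4 group comparisons, though 238 genes passed it in exercised WT against WT. At an unadjusted p under 0.05 that test gave 1, 4, 4 and 1 members for KO against WT, KE against KO, exercised WT against WT and KE against exercised WT, beside 3.8%, 13.5%, 24.7% and 10.7% of all genes. Without the block, the largest member difference in the 4 group comparisons was 0.49 on the log2 scale (Grin2d in KO versus WT), below a doubling. It was 0.18 in the authors' table, 0.12 with the block or without KO replicate 3, and 0.84 without KO replicate 1. With the block the largest was 0.81 (Shank3 in exercised WT versus WT). Members were then counted at an unadjusted p under 0.05, which is no evidence for a single gene, and the counts were read against all genes tested. In bulk tissue, fewer cells of a type and less RNA per cell cannot be told apart. The comparisons share groups (KO mice stand in both KO versus WT and KE versus KO), so their counts are not independent.

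**Figure D1:**
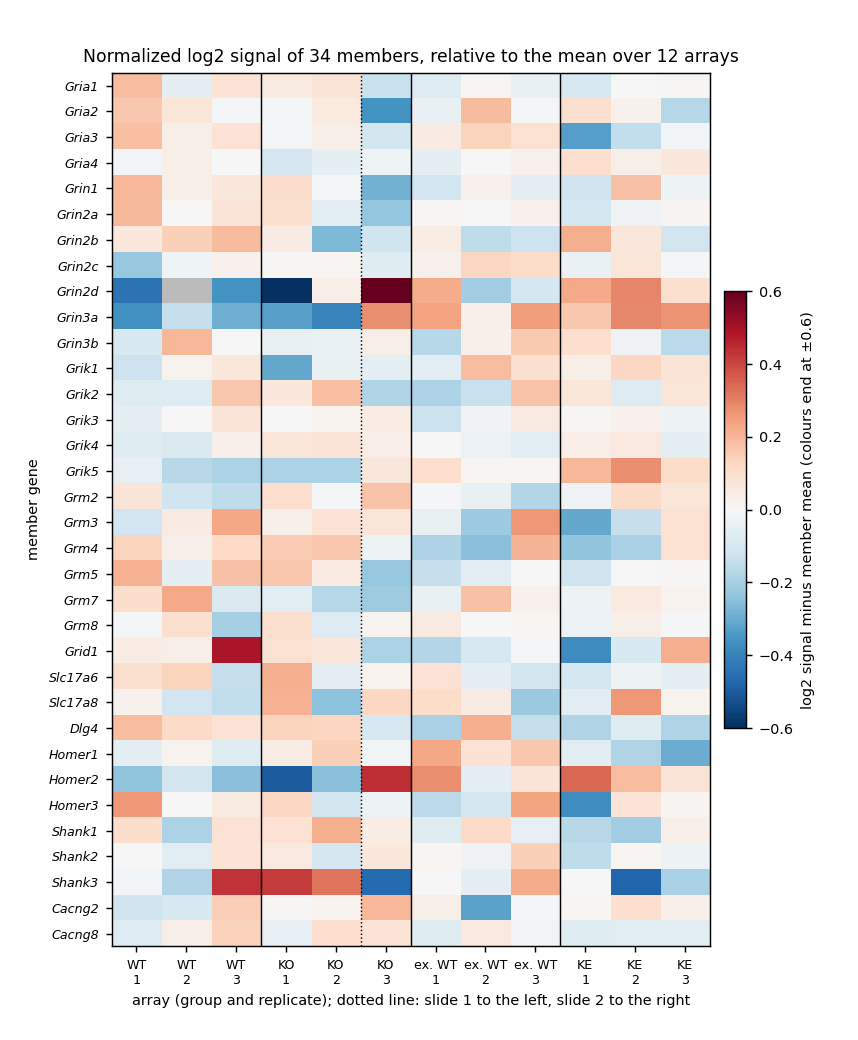
Normalized log2 signal of the 34 tested members (rows) on the 12 arrays (columns, by group and replicate; ex. WT, exercised WT), as the deviation from each member's mean over the arrays. Colours end at 0.6 in either direction and the grey cell is a spot left out as an outlier. Grin2d, Grin3a and Homer2 have KO replicate 3 (slide 2) above their mean and KO replicate 1 (slide 1) below it.

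Homer1 had the lowest unadjusted p of any member. The mean of its 4 probes was 8.35, 8.42 and 8.33 in WT, 8.45, 8.54 and 8.38 in KO, 8.63, 8.49 and 8.56 in exercised WT, and 8.33, 8.22 and 8.10 in KE mice. All KE arrays lay below all exercised WT arrays and all KO arrays, and all exercised WT arrays lay above all WT arrays. KE was lower than exercised WT by a log2 difference of -0.34 (standard error 0.07, adjusted p = 0.481 from limma). It was lower than KO by -0.24 (standard error 0.07, adjusted p = 0.144 from limma), and by -0.17 with the slide as a block. Exercised WT was higher than WT by 0.20 (standard error 0.07, adjusted p = 0.141 from limma), and by 0.31 with the block. The interaction was -0.43 (standard error 0.10, adjusted p = 0.445 from limma), and -0.47 with the block, so the measured change with swimming pointed down in knockout and up in wild-type mice. KO and WT arrays overlapped, at 8.46 ± 0.08 and 8.37 ± 0.05 (SD, n = 3 each).

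The 4 Homer1 probes did not share these differences. The probe of the cDNA clone, which lies between the probes of variants S and d, read 7.17, 7.34 and 6.95 in WT, 7.46, 7.91 and 7.31 in KO, 7.88, 7.47 and 7.39 in exercised WT, and 7.14, 6.65 and 6.36 in KE mice. Every KE array was below every KO and exercised WT array here, while KE and WT arrays overlapped. Its log2 difference was -0.86 for KE versus exercised WT (standard error 0.22, adjusted p = 0.576 from limma over all probes) and -1.26 for the interaction (standard error 0.32, adjusted p = 0.477 from limma). The variant S probe read 7.32, 7.18 and 7.46 in WT, 7.40, 7.58 and 6.91 in KO, 7.42, 7.23 and 7.26 in exercised WT, and 6.93, 6.93 and 6.99 in KE mice. KE was below exercised WT on all arrays (-0.35), but the KO array of slide 2 read as low as the KE arrays, and the difference from KO of -0.34 became 0.04 with the block. The variant d probe read 9.50, 9.55 and 9.51 in KE and 9.58, 9.58 and 9.87 in exercised WT mice, a difference of -0.16 without overlap, and the variant L probe differed by 0.00. In the interaction these differed by -0.06 and -0.09. All 4 probes were above background on all 12 arrays.

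**Figure D2:**
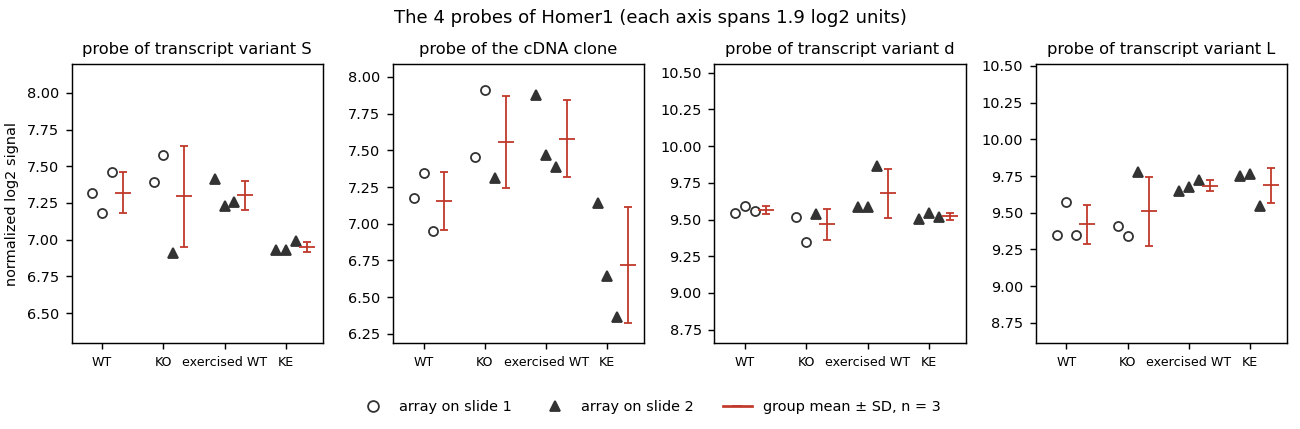
Normalized log2 signal of each Homer1 probe by group, with 1 point per array (open circles, slide 1; filled triangles, slide 2) and the group mean ± SD (n = 3); the axes span the same number of log2 units. KE arrays lie below the KO and exercised WT arrays on the cDNA clone probe (6.36 to 7.14), below all arrays but KO replicate 3 on the variant S probe (6.93 to 6.99), and among the KO and WT arrays on the variant d probe (9.50 to 9.55).

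Markers of some other brain regions were also lower in KE than in exercised WT mice. All 8 striatal markers were, with a median of -0.46, 2 of them at an unadjusted p under 0.05 (Drd1 at -0.74 and Adora2a at -1.33, dopamine and adenosine receptors of striatal neurons). Over all genes, 10014 of 18266 were lower in this comparison, and 5.03% were lower at that threshold. The mean log2 signal of the striatal list was 8.64 to 8.66 in KE, 8.72 to 9.74 in exercised WT, 8.74 to 9.12 in WT and 8.74 to 8.84 in KO mice. The list of cortex and hippocampus, of which Emx1 was not tested, was lower in KE mice for 8 of 9 markers, at 8.28 to 8.41 against 8.46 to 8.64 in exercised WT mice. Choroid plexus markers were lower for 7 of 7, at 7.31 to 7.51 against 7.65 to 8.24. Thalamic markers were higher for 4 of 8 and lower for 4, and hypothalamic markers were higher for 12 of 16, with a median of 0.07. The list for all neurons was at 12.20 to 12.25 in KE and 12.19 to 12.23 in exercised WT mice. Markers of GABAergic neurons were lower for 4 of 4 (median -0.12), of astrocytes for 6 of 7, of microglia for 5 of 6, of endothelium for 4 of 5, of oligodendrocytes for 4 of 7 and of the anterior pituitary for both tested. Without exercised WT replicate 3, the array highest in striatal markers, the Homer1 difference was again -0.34, with the other exercised WT arrays at 8.72 and 9.01 on the striatal list, still above the KE arrays. The part of any of these signals in the Homer1 difference was not tested.

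**Figure D3:**
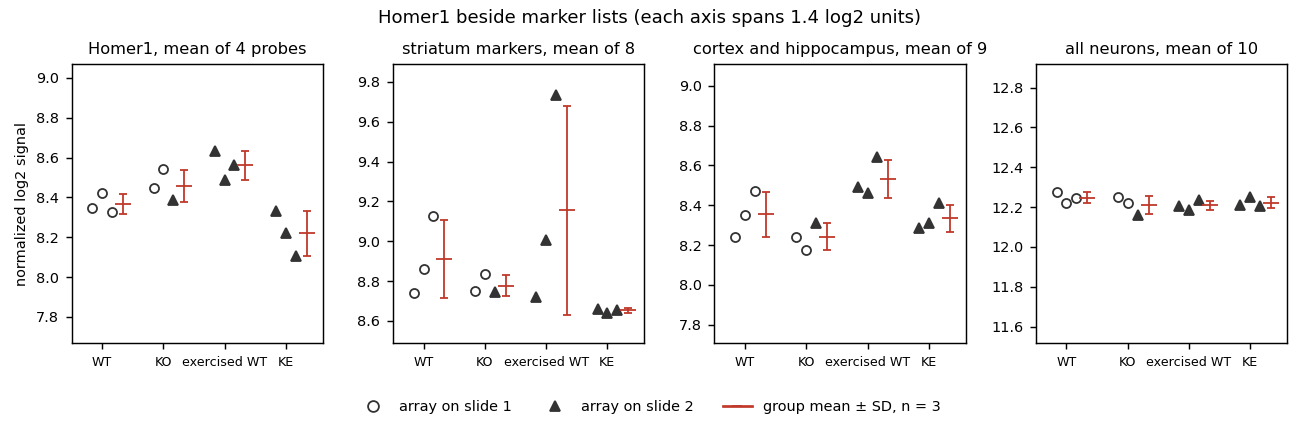
Mean normalized log2 signal of Homer1 and of 3 marker lists by group, 1 point per array (open circles, slide 1; filled triangles, slide 2), with the group mean ± SD (n = 3). In KE mice Homer1 (8.10 to 8.33) and the striatal list (8.64 to 8.66) lie below exercised WT mice, and the list for all neurons stays between 12.16 and 12.27 over all arrays.

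The remaining scaffolds showed smaller or uneven differences. Over the 7 scaffolds, 6 were lower in KE than in KO and in exercised WT mice, with medians of -0.20 and -0.10, against -0.04 and -0.01 over all genes, and with the slide as a block the first median was -0.12. Dlg4, the core scaffold of excitatory synapses, read 8.37, 8.30 and 8.28 in WT, 8.32, 8.32 and 8.09 in KO, 7.999, 8.410 and 8.046 in exercised WT, and 8.01, 8.12 and 8.01 in KE mice. The groups overlapped in each of the 4 group comparisons, and its difference for KE versus KO was -0.20 (95% interval -0.43 to 0.04), and -0.05 with the block. Shank1, which links Homer to Dlg4-bound proteins, was at 6.24, 6.36 and 6.19 in KO and 5.98, 5.94 and 6.18 in KE mice, without overlap but with the nearest arrays almost level. The difference of -0.23 (standard error 0.10, adjusted p = 0.230 from limma) was negative for all 4 probes, from -0.06 to -0.47, the last in a probe above background on 7 of 12 arrays, and was -0.16 with the block.

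Homer2 arrays divided along the slides, and the direction of Shank3 depended on the block. Of the untrained mice only KO replicate 3 lay on slide 2. A slide effect and an atypical KO replicate 3 therefore cannot be told apart. For Homer2, the probe of a cDNA clone was at 5.32 to 6.10 on the slide 1 arrays and at 6.40 to 7.31 on the slide 2 arrays, with KO replicate 3 highest, while its mRNA probe divided the other way, at 9.45 to 9.50 on slide 1 and 9.21 to 9.37 on slide 2. The Homer2 difference between exercised WT and WT was 0.30 without the block and -0.52 with it. For Shank3, which read 7.26, 7.16 and 6.37 in KO mice, that difference was -0.02 without and 0.81 with the block, and 2 of its 3 probes were above background on 8 and 9 of 12 arrays only.

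The AMPA subunits form the receptor channel itself. In KO mice all 4 were lower than in WT mice, by -0.18 to -0.07, and 0 of them at an unadjusted p under 0.05. Of all 18266 genes 9693 were lower in this comparison, as were 9 of 10 markers of all neurons and 4 of 4 of GABAergic neurons. Blocking the slide gave -0.09 for Gria3 and Gria4, -0.05 for Gria2 and -0.01 for Gria1. Gria3 was at 8.37, 8.23 and 8.27 in WT, 8.18, 8.23 and 8.08 in KO, 8.24, 8.32 and 8.28 in exercised WT, and 7.86, 8.04 and 8.17 in KE mice. The KE arrays lay below the exercised WT arrays, with a difference of -0.26 (standard error 0.08, adjusted p = 0.614 from limma). Most of this lay in the dim cDNA clone probe, which differed by -0.68 (3.67, 4.12 and 4.67 in KE against 4.82, 4.96 and 4.71 in exercised WT mice) and was above background on 3 exercised WT arrays but 1 KE array, whereas the probes of variants 1 and 4 differed by -0.02 and -0.07. That dim probe passed the detection filter through KO and exercised WT mice and not through KE mice, so its difference is no independent evidence. The gene's difference was -0.08 with normexp background correction and -0.04 over the probes detected on all 12 arrays.

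Gria4 had the narrowest range of the 4 AMPA subunits, 0.20 over the 12 arrays. It read 10.38, 10.43 and 10.40 in WT, 10.30, 10.34 and 10.37 in KO, 10.34, 10.40 and 10.42 in exercised WT, and 10.50, 10.44 and 10.47 in KE mice. The KE arrays lay above the KO and exercised WT arrays, and the KO arrays below the WT arrays. KE exceeded KO by 0.13 (standard error 0.04, adjusted p = 0.168 from limma), and by 0.09 to 0.17 on each of its 3 probes. With the slide as a block it was 0.10. Exercised WT differed from WT by -0.02, and by -0.07 with the block. The interaction was 0.15 (standard error 0.06, adjusted p = 0.599 from limma), and 0.17 with the block.

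NMDA receptors need Grin1 in every assembly, with Grin2 or Grin3 subunits setting their properties. Grin1 read 8.71, 8.54 and 8.57 in WT, 8.61, 8.49 and 8.22 in KO, 8.39, 8.53 and 8.45 in exercised WT, and 8.39, 8.68 and 8.48 in KE mice. Of the 4 group comparisons the arrays overlapped in all but exercised WT versus WT, where the difference was -0.15 (95% interval -0.39 to 0.09), and 0.18 with the block. In KE versus KO its probes went both ways, by 0.40 for the cDNA clone probe, -0.15 for the variant 3 probe and -0.03 for the variant 1 probe.

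Grin2b, the subunit common in young synapses, was at 6.29, 6.37 and 6.42 in WT, 6.28, 5.96 and 6.11 in KO, 6.27, 6.07 and 6.10 in exercised WT, and 6.44, 6.29 and 6.12 in KE mice. KO was lower than WT by -0.25 (standard error 0.10, adjusted p = 0.839 from limma), with the nearest arrays almost level. The interaction was 0.38 (standard error 0.14, adjusted p = 0.557 from limma). With the block these were -0.24, no longer past an unadjusted p of 0.05, and 0.38. Without the cDNA clone probe they were -0.06 and -0.03, as the mRNA probes went opposite ways, and with normexp they were -0.10 and 0.12. The cDNA clone probe read 4.21, 4.64 and 4.73 in WT and 4.21, 3.58 and 3.93 in KO mice, with the nearest arrays almost level. It was above background on all 3 WT and KE arrays, 2 exercised WT arrays and 0 KO arrays. It thus passed the detection filter only through the groups where it is high, so its difference is no independent evidence. Between the group means it was at least 1.21-fold lower in KO than in WT mice. For that bound a KO array below the dimmest probe called above background on it was raised to that probe's signal. The first and second mRNA probes differed by -0.21 and 0.09 in KO versus WT and by 0.30 and -0.36 in the interaction. On the first, all KO arrays lay below all WT arrays (8.70 to 8.93 against 9.01 to 9.05).

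Grin3a, a subunit that lowers calcium entry, had 1 tested probe and read 11.94, 12.16 and 12.01 in WT, 11.98, 11.90 and 12.58 in KO, 12.54, 12.33 and 12.55 in exercised WT, and 12.46, 12.59 and 12.57 in KE mice. KO replicate 3 stood with the exercised mice. KE exceeded KO by 0.39 (standard error 0.16, adjusted p = 0.206 from limma), with overlap. Exercised WT exceeded WT by 0.44 (standard error 0.16, adjusted p = 0.137 from limma), without overlap. These became -0.04 and -0.20 with the slide as a block. Grin2d had the widest range of any member, 1.45, with 9.38 in KO replicate 3 against 7.93 and 8.58 on the other KO arrays and 8.09 and 8.18 on the WT arrays (the spot of WT replicate 2 was an outlier and was left out, so n = 2). Its difference between exercised WT and WT was 0.37 without the block and -0.75 with it. Grin2c was at 10.698, 10.899 and 10.948 in WT and 10.950, 11.048 and 11.034 in exercised WT mice. Exercised WT was higher by 0.16 (standard error 0.07, adjusted p = 0.187 from limma), which was -0.07 on one probe and 0.39 on the other. It was 0.25 with the block, no longer past an unadjusted p of 0.05, and 0.09 to 0.21 on leaving out 1 array. Grin2a and Grin3b ranged from -0.16 to 0.03 over the 4 group comparisons, and from -0.11 to 0.19 with the block.

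**Figure D4:**
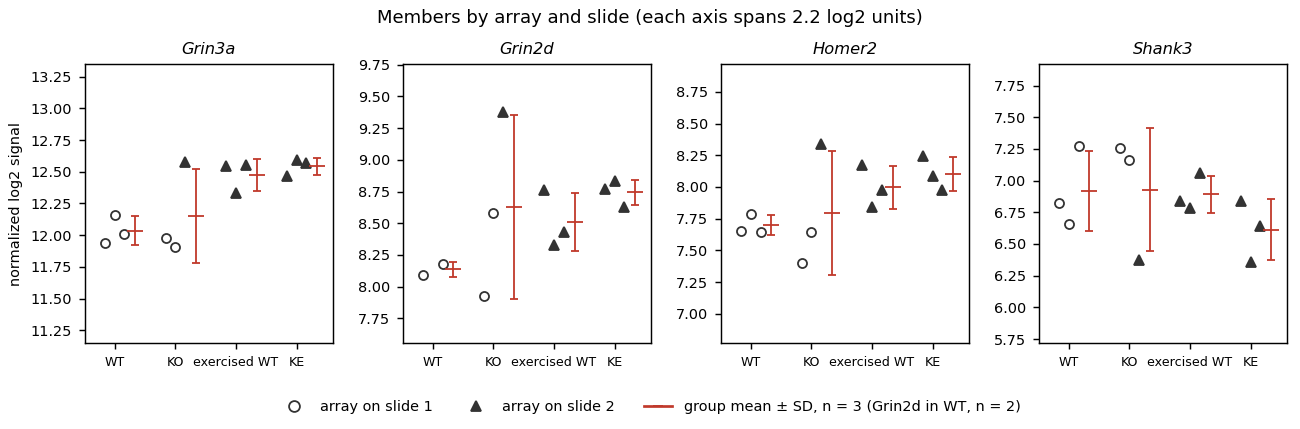
Normalized log2 signal of 4 members by group, 1 point per array (open circles, slide 1; filled triangles, slide 2), with the group mean ± SD (n = 3, and n = 2 for Grin2d in WT). For Grin3a, Grin2d and Homer2 the KO array of slide 2 (12.58, 9.38 and 8.34) stands above the KO arrays of slide 1, and for Shank3 (6.37) below them.

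All 5 kainate receptor subunits were higher in KE than in exercised WT mice, by 0.01 to 0.16, and 0 of them had an unadjusted p under 0.05. Of all 18266 genes 8252 were higher in that comparison. Grik5, which joins Grik1 to Grik3 in high-affinity receptors, read 8.80, 8.80 and 9.06 in KO and 9.19, 9.26 and 9.10 in KE mice. KE lay above KO by 0.30 (standard error 0.08, adjusted p = 0.132 from limma), and by 0.13 with the slide as a block. Grik1 read 8.11, 8.38 and 8.37 in KO and 8.46, 8.54 and 8.50 in KE mice, a difference of 0.21 (standard error 0.09, adjusted p = 0.229 from limma), and 0.13 with the block. Its probes went both ways, at 0.48 for the variant 1 probe, 0.55 for a cDNA clone, 0.20 and -0.02 for the probes of variant 2, and -0.15 for a predicted transcript above background on 7 of 12 arrays. Grid1, the delta receptor, which takes part in synapse adhesion, averaged 7.90 ± 0.26 in WT and 7.61 ± 0.08 in exercised WT mice, against 7.69 ± 0.16 in KO and 7.62 ± 0.30 in KE mice (SD, n = 3 each). Exercised WT arrays lay below WT arrays, by -0.29 (95% interval -0.65 to 0.07), and by -0.02 with the block.

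Over the 6 tested metabotropic receptors, the log2 differences ran from -0.23 to 0.17 in the 4 group comparisons (-0.20 to 0.23 when blocking the slide), and 1 was past an unadjusted p of 0.05. That was Grm7, a presynaptic receptor of group III, at 8.35, 8.47 and 8.16 in WT and 8.18, 8.07 and 8.03 in KO mice. The groups overlapped, and the difference was -0.23 (standard error 0.09, adjusted p = 0.839 from limma), or -0.20 when the slide was blocked. It lay in a dim cDNA clone probe (-0.49), while the bright mRNA probe differed by 0.02. Grm6, the receptor of retinal bipolar cells, had 3 probes, above background on 0 of 12 arrays.

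Slc17a6 (VGLUT2) is the vesicular transporter of most hypothalamic glutamate neurons, Slc17a7 (VGLUT1) that of cortex and hippocampus, and Slc17a8 (VGLUT3) that of scattered neurons that often use another transmitter as well. Slc17a6 read 13.27, 13.31 and 13.04 in WT, 13.39, 13.12 and 13.20 in KO, 13.26, 13.11 and 13.06 in exercised WT, and 13.07, 13.14 and 13.12 in KE mice. All groups overlapped, and the widest difference was -0.13 in KE versus KO (95% interval -0.33 to 0.08), and -0.09 with the block. Slc17a8 read 10.21, 10.07 and 10.04 in WT, 10.40, 9.94 and 10.31 in KO, 10.30, 10.24 and 9.97 in exercised WT, and 10.13, 10.45 and 10.21 in KE mice, again with overlap of all groups. Slc17a7 was not tested. Its probe was above background on 1 WT array and 2 exercised WT arrays, with values of 4.02, 1.84 and 1.82 in WT, 1.94, 1.83 and 3.19 in KO, 3.98, 4.52 and 5.09 in exercised WT, and 2.50, 3.25 and 3.42 in KE mice. The TARPs Cacng2 and Cacng8, which carry AMPA receptors to the membrane, differed by -0.11 to 0.15 in the 4 group comparisons, and by -0.26 to 0.15 with the block.

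The share of members past the unadjusted threshold was set beside that of all genes. In KO versus WT, 0 of 34 members were higher and 2 (5.88%) lower at an unadjusted p under 0.05, against 2.68% and 2.79% of all genes, and 0 were past it with the slide as a block, against 5.86%. In KE versus KO, 4 (11.8%) were higher and 2 (5.88%) lower, against 6.95% and 13.5%, while blocking the slide gave 3 (8.82%), against 8.23%. Those 3 were Gria2 (0.34), Grin1 (0.29) and Grin2d (-0.64), none of which was past it without the block. With the block, KO replicate 3 is the only KO array behind them. In exercised WT versus WT, 3 (8.82%) were higher and 0 lower, against 10.6% and 14%, and with the block 5 (14.7%), against 5.99%. The 5 were Gria2 (0.36), Grin2d (-0.75), Homer1 (0.31), Homer2 (-0.52) and Shank3 (0.81). The slide term behind these values comes from KO replicate 3 against the other KO arrays alone. For Shank3 these read 6.37 against 7.26 and 7.16. In KE versus exercised WT 0 were higher and 2 (5.88%) lower, against 2.11% and 5.03%, while blocking the slide gave 3 (8.82%; Homer1, Gria3 and Grik5), against 10.4%. In the interaction 2 (5.88%) were higher and 1 (2.94%) lower, against 3.21% and 4.85%, and with the block 4 (11.8%; Homer1, Grin2b, Gria4 and Grik5), against 11.1%. The median over members was between -0.03 and 0.01 in the 5 comparisons, and that over all genes between -0.04 and -0.01. The direction of the small differences moved with the scaling: 19 of 34 members were above 0 in KO versus WT and 17 in KE versus exercised WT, but 15 and 21 with 75th percentile scaling, and the 11 above 0 in exercised WT versus WT became 15 with another background correction (normexp).

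**Figure D5:**
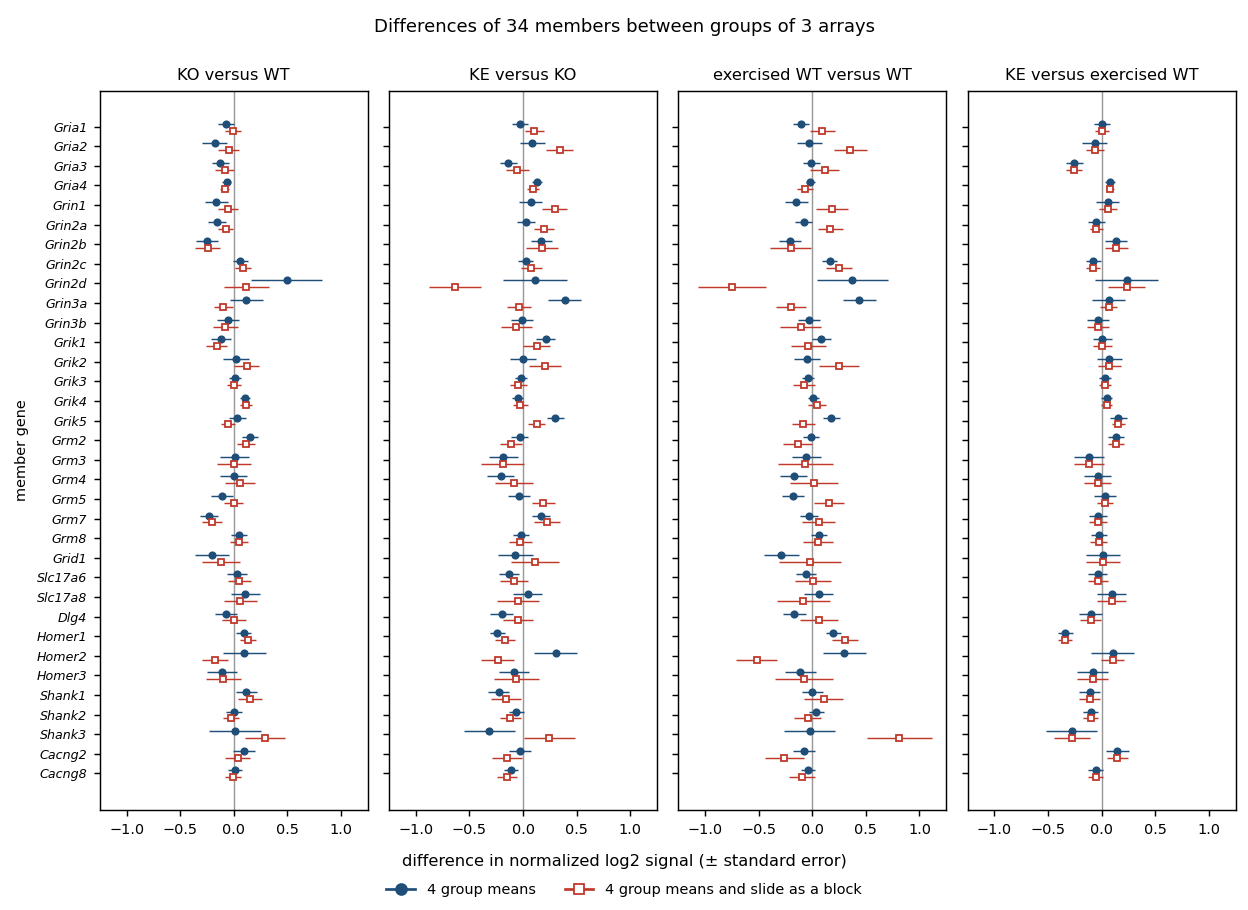
Log2 difference ± standard error of each tested member in the 4 group comparisons, from the fit of group means (filled circles) and with the slide as a block (open squares); each group has 3 arrays, except Grin2d in WT with 2. Both coincide in KE versus exercised WT, whose arrays share a slide, and Grin2d, Homer2 and Shank3 change sign or size with the block in exercised WT versus WT.

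A single array decided the adjusted count. Without KO replicate 3, 5 of 34 members and 21.5% of all genes passed adjustment in KE versus KO, and every remaining KO array was then on slide 1 and every KE array on slide 2. They were Grin3a (0.60), Homer2 (0.58), Grik5 (0.39), Gria4 (0.15) and Homer1 (-0.28). With all arrays and the block, Grin3a and Homer2 were at -0.04 and -0.24. In exercised WT versus WT the same omission, which changes only the shared estimate of spread, gave 1 member, Grin3a, and 14.5% of all genes. Slide and swimming cannot be told apart in either case. Of the 23 members with more than 1 tested probe, 11, 17, 16, 14 and 14 had probes of both signs in the 5 comparisons, in the order of the counts above.

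Other genes of glutamate signaling, formed a list of 46, of which 45 were tested. After adjustment 0 passed in any comparison. At an unadjusted p under 0.05, 0 were higher and 1 lower in KO than in WT mice (against 2.68% and 2.79% of all genes), 1 higher and 1 lower in KE than in KO mice (6.95% and 13.5%), and 3 higher and 8 lower in exercised WT than in WT mice (10.6% and 14%). KE against exercised WT gave 2 higher and 2 lower (2.11% and 5.03%), and the interaction 1 and 2 (3.21% and 4.85%). Blocking the slide put 1, 3, 2, 6 and 1 past it in the 5 comparisons, against 5.86%, 8.23%, 5.99%, 10.4% and 11.1% of all genes. The 11 in exercised WT against WT thus became 2, while the share of all genes also fell, to 5.99% over both directions. The medians ran from -0.04 to 0.01. The lowest unadjusted p values in KO versus WT belonged to Unc13a (-0.20), which primes vesicles for release, Dlgap1 (-0.16, and -0.07 with the block) and Camk2b (-0.11). In KE versus KO they included those of Slc1a1 (-0.13), a neuronal glutamate transporter, and Cnih3 (-0.25). In exercised WT versus WT they included those of Dlgap2 (0.38) and Slc1a6 (-0.40), which were at 0.02 and -0.35 with the slide as a block. In KE versus exercised WT they were those of Pick1 (0.27), which binds AMPA subunits, Slc38a2 (-0.26) and Slc1a6 (0.30), and in the interaction those of Unc13a (0.33), Dlgap4 (-0.26) and Lrrtm1 (-0.22). Arc, an activity-induced gene of the same synapses, was at 10.16 to 10.36 in KE and 10.18 to 10.48 in exercised WT mice, with a difference of -0.13 (95% interval -0.38 to 0.13); it was singled out after its values were seen.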

How the data were processed

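The 36 genes, the pathway and marker lists, the tests and the alternatives were chosen with earlier results of these data known. Deposited per array was the spot intensity from the scanner, background-subtracted by Agilent Feature Extraction 10.7.1.1, and per series the log2 values that the authors had quantile-normalized. Their 4 lists of differential probes, with fold changes, p-values and 24 columns of values per sample, were not used. From the scanner output, outlier spots were left out, log2 processed signals were quantile-normalized, and replicate spots and then the tested probes of a gene were averaged. limma 3.58.1 (R 4.3.3) estimated group means over all 12 arrays, adjusting p-values by Benjamini-Hochberg over 18266 genes. On simulated data with 200 changed genes among 18266, 189 were recovered, with 12 false calls, in KE versus exercised WT. The effect size and spread given to these 200 genes are not reported here. Whether differences as small as those of the members would be recovered was not tested. Figures used Python 3.11.15, pandas 2.3.3, numpy 2.4.6 and matplotlib 3.10.9. Named genes were members with an unadjusted p under 0.05 in a comparison, Grin1, the vesicular transporters, Dlg4, Homer1, untested members and, per comparison, the 3 other pathway genes of lowest p, some of which are not reported here; the rest are given by range, apart from members whose values turn on the slide, which were named after their values were seen. The alternatives were 75th percentile scaling, normexp with an offset of 50, the authors' table, no detection filter, detection on all 12 arrays, the brightest probe, a fit restricted to the compared groups, the methods' t-test, the slide or replicate number as a block, 1 slide only, and leaving out each array. A combination of 75th percentile scaling and the slide block was added after the data were seen. Samples were taken as separate mice, which the labels, numbering them as replicates, do not state. The 3 arrays per group limit the precision. Exon and intron annotation of build mm9 was not used here.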

Additional observations from a re-analysis of the deposited data

Results flagged for a closer look

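For 3 members the test of whether the swimming effect differed by genotype had an unadjusted p under 0.05. Of the members 5.88% were higher and 2.94% lower, beside 3.21% and 4.85% of all genes. The interaction was -0.43 for Homer1 and 0.38 for Grin2b on the log2 scale, and every exercised array of one genotype lay on the opposite side of its untrained mean from every exercised array of the other. For Grin2b the margin was narrow, with KE replicate 3 at 6.116 against a KO mean of 6.113. The split was read from the values that gave the p, so it adds no support, and its share over all genes was not counted. Most of the Homer1 interaction lay in its cDNA clone probe. Its probes of variants d and L averaged higher, and that of variant S lower, in exercised than in untrained mice of both genotypes. The Grin2b interaction was slightly reversed without its dim cDNA clone probe. For Gria4 the interaction was 0.15, without such a split. None of these passed adjustment over all genes (adjusted p = 0.445, 0.557 and 0.599 from limma, and 0.224, 0.429 and 0.379 with the slide as a block).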

How the results depend on the processing

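Of 372 values that the 16 differences at an unadjusted p under 0.05 took under other settings, 254 kept their direction and stayed past it, 11 reversed, and the rest kept only their direction. The reversals were those of Grm7 in KO versus WT (0.12 without a detection filter, 0.0225 for the brightest probe), of Grin3a in KE versus KO (-0.12 without a detection filter, -0.0377 with the slide as a block or on 1 slide only, -0.10 with 75th percentile scaling and the slide block) and, for exercised WT versus WT, -0.20 and -0.24 with those blocks, of Homer1 for the brightest probe (0.18 in KE versus KO and 0.00304 in KE versus exercised WT), and of Grin2b in the interaction (-0.0294 for probes detected on all 12 arrays). The count of members in KO versus WT was 2, and 1 with normexp, no detection filter, detection on all 12 arrays, a fit restricted to the compared groups, the methods' t-test, or 75th percentile scaling with the slide block, and 0 for the brightest probe, the slide block or 1 slide only. Over all genes, the brightest probe, the slide block and 1 slide only gave 935, 1070 and 883, and the fit restricted to the compared groups 658. In KE versus KO it was 6, and 3 with the slide block or 1 slide only, beside 1503 and 1741 of all 18266 genes. In exercised WT versus WT it was 3, and 6 for the brightest probe or a fit on the groups compared, and 5 with the slide block. Over all genes these settings gave 4802, 4898 and 1095. In KE versus exercised WT it was 2, and 1 with detection on all 12 arrays or the methods' t-test, and 0 for the brightest probe. Over all genes these settings gave 1197 (of 17176), 1959 and 1313. Leaving out 1 array gave 0 to 5, 3 to 10, 1 to 6, 2 to 3 and 1 to 4 members in the 5 comparisons. The counts of all 18266 genes moved as well, from 818 to 1606, 2038 to 6699, 3169 to 5869, 838 to 1903 and 1030 to 2025. After adjustment it gave 0 to 5 in KE versus KO and 0 to 1 in exercised WT versus WT, both highest without KO replicate 3, and 0 in the others. Replicate numbers did not pair the samples (correlation of same-numbered arrays -0.18 to 0.23). The replicate block gave 2, 5, 3, 2 and 2 members, beside 1143, 3768, 4540, 1392 and 1619 of all genes. Scaling by the 75th percentile shifted the median of all genes by less than 0.1. The causes of these shifts were not tested. Dim probes, above background on some arrays only, carry most of the difference of Gria3 and of the KO versus WT difference of Grin2b. Without its dim probe the interaction of Grin2b reversed, to -0.0294. Differences below the spread of 3 arrays could not be resolved.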
